A study of Mus musculus with 13 samples.

Results

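The comparison described here set splenic natural killer (NK) cells against splenic CD11b conventional dendritic cells (CD11b cDCs) of the mouse, with 2 arrays of each, which are 4 of the 13 mouse arrays at hand. The 4 arrays were chosen by their titles alone. The other 9 arrays held CD8α cDCs, plasmacytoid DCs (pDCs), B cells and CD8 T cells. They served to estimate the spread between replicates and to ask which genes these 2 populations held above the other 4. They also took part in the choice of the genes tested and of the probe set that represents each gene. All 4 arrays came from untreated wild-type C57BL/6 mice, whose sex and age the labels do not give. Spleens were digested with collagenase and red cells were lysed. NK cells were sorted as NK1.1+TCRβ- cells and CD11b cDCs as lineage-negative, CD11c-high, CD11b+, 120G8-/low cells. The cells of 6 to 10 mice were pooled for each NK cell array and those of 10 to 15 mice for each CD11b cDC array, and the duplicates came from independent sorts. A sorted pool has no single-cell resolution, so that fewer cells of a type and less RNA per cell cannot be told apart in any value below.

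NK cells are innate lymphocytes that kill infected or transformed cells by releasing perforin and granzymes, and that secrete interferon gamma when cytokines or activating receptors stimulate them. CD11b cDCs are dendritic cells of the spleen that take up antigen, cut it in lysosomes and show the peptides on MHC class II to CD4 T cells. Both carry the integrin chain CD11c on mouse cells, which has made cells that combine NK and DC markers hard to classify. Which genes set the 2 populations apart, and which do both carry at the same level, is therefore a question that the study's compendium can address.

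The measure throughout is the MAS5 signal of a probe set, a linear brightness that the authors scaled to a target of 100 on each array. Signals below 20 were set to 20 and all were log2 transformed. A difference is NK cells minus CD11b cDCs on the log2 scale, so that a positive value means a higher signal in NK cells, and where both arrays of a population lay below 20 it is a lower bound. Each of 9391 genes was represented by 1 probe set and tested with limma in 1 fit to all 13 arrays, and a gene was called at a Benjamini-Hochberg adjusted p of at most 0.05. The median standard error of a difference was 0.25. Duplicates correlated at 0.975 for NK cells and 0.987 for CD11b cDCs (Pearson's r over genes on the log2 scale).

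The NK cell and CD11b cDC arrays shared no scan day and no chip lot, so that array batch and cell type cannot be told apart. The signal of the Gapdh control probe set at the 3' end over that at the 5' end was 23.9 and 11.2 on the NK cell arrays and 3.97 and 3.49 on the CD11b cDC arrays. The part of this ratio in the differences was not tested. Xist, the X-inactivation RNA of female cells, stood at 3038 and 1654 in CD11b cDCs and at 0.805 and 0.732 in NK cells, whereas the Y-linked Eif2s3y stood at 384 and 346 in NK cells and 2.03 and 5.42 in CD11b cDCs, so that the sex of the pooled mice cannot be told apart from the cell type either. The brightest genes lay to the NK side: of 61 genes with both means at or above 5000, 55 were higher in NK cells, with a median difference of 0.45. After quantile or invariant-rank normalization 34 and 31 of them were higher in NK cells, and the median fell to 0.051 and 0.022, so that no direction is read below from a bright gene alone.

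The labels matched the markers. Ncr1, which encodes the activating receptor NKp46, read 1059 and 1628 in NK cells and 9.20 and 8.24 in CD11b cDCs. Sirpa, the CD47 receptor found on CD11b cDCs and on myeloid cells, had 1516 and 1317 in CD11b cDCs and 0.874 and 7.59 in NK cells. In both cases the groups stood apart and the lower population was under the floor (Ncr1 6.04, SE 0.19, adjusted p = 2.24e-09, Sirpa -6.14, SE 0.27, adjusted p = 1.78e-08). All 10 NK cell markers tested, of 11 listed, were higher in NK cells, where 23.3% of all genes tested were, and all 12 CD11b cDC markers tested, of 13 listed, were higher in CD11b cDCs, where 21.1% of all genes tested were. Both lists were chosen with earlier results of these data known, and they hold Ncr1, Sirpa and the sort antigen Itgax. The counts are thus a description and not a test of the labels. Itgax was the only marker of these lists that lay within 2-fold.

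RNA of other cells was looked for with marker lists. The 10 NK cell markers summed to 52443 and 50998 on the NK cell arrays and to 2785 and 2590.2 on the CD11b cDC arrays, where Ncr1, Eomes, Prf1 and Il2rb lay below 20 and 3 of the 10, Klrd1, Tbx21 and Klrk1, had at least 50 on both arrays. The 12 CD11b cDC markers summed to 23235 and 24015 on the CD11b cDC arrays and to 3113 and 3110.4 on the NK cell arrays, almost all of it Itgax, with 6 of the 12 below 20. The sum of this list averaged 15925 in CD8α cDCs, 15525 in pDCs, 10414 in B cells and 352 in CD8 T cells. The list is thus not particular to CD11b cDCs. The summed signal of 12 T cell markers was 975 and 969.9 on the NK cell arrays, 730.2 and 647 on the CD11b cDC arrays, and averaged 19615 in CD8 T cells. Of the 12, 5 had at least 50 on both NK cell arrays and 2 on both CD11b cDC arrays. Below 20 on both arrays lay 6 in NK cells and 10 in CD11b cDCs, Cd8a, Cd8b1 and Themis in both. Most of the CD11b cDC sum was Cd4, which is also a marker of these DCs. The 10 B cell markers summed to 1866 and 2015 in NK cells, to 4768 and 4780.1 in CD11b cDCs and to 36420.3 in B cells, most of it from Ighm and Cd22, with Pax5 and Ebf1 below 20 on all 4 arrays. At least 50 on both arrays was reached by 2 of them in NK cells and 5 in CD11b cDCs. The 9 pDC markers summed to 446 and 449 in NK cells, to 986 and 1028 in CD11b cDCs and to 33918 in pDCs, with Siglech below 20 on all 4 arrays. In each of the 2 populations 4 of these markers lay below 20 and 3 had at least 50 on both arrays. The 9 markers of CD8α cDCs summed to 557 and 475 in NK cells, to 6785 and 6833 in CD11b cDCs and to 28880.0 in CD8α cDCs, and most of the CD11b cDC sum was Wdfy4, whereas Xcr1 had 22.0 and 6.68 there. Among the 9, 4 had at least 50 on both CD11b cDC arrays and 1 on both NK cell arrays. The 14 macrophage and monocyte markers summed to 5847 and 6466 in CD11b cDCs and to 177 and 190.2 in NK cells, most of it from Csf1r, Adgre1 and Treml4, while Cd14, C1qa, C1qb and C1qc lay between 54.1 and 136 in CD11b cDCs. The 8 erythroid and platelet markers summed to 1526 and 2122 in NK cells and to 210.2 and 277.5 in CD11b cDCs, almost all of it Car2, a carbonic anhydrase, while Hba-a1, Alas2 and Gp9 lay below 20 in both. The 10 neutrophil markers summed to 126 and 122 in NK cells and 312 and 277.7 in CD11b cDCs. The part of other cells in the results was not tested.

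**Figure D1:**
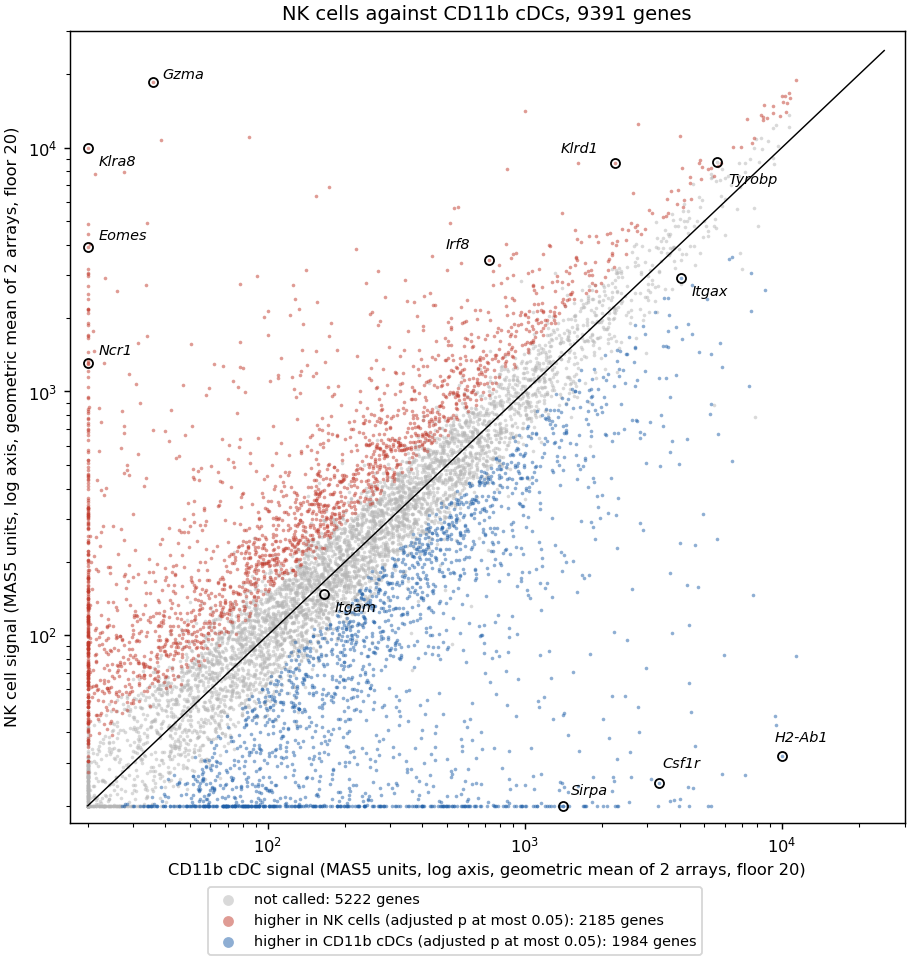
Each point is 1 of 9391 genes, with its signal in CD11b cDCs on the x axis and in NK cells on the y axis (geometric mean of 2 arrays, MAS5 units, log axes, values below 20 drawn at 20), coloured by the limma call. Itgax and Itgam lie near the diagonal of equal signal, whereas Ncr1, Eomes and Klra8 sit at the floor of CD11b cDCs and Sirpa at the floor of NK cells.

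Of the 9391 genes, 4169 were called, 2185 of them higher in NK cells and 1984 higher in CD11b cDCs. The arrays stood apart for all called genes, but also for many others, 7028 of the 9391 genes tested in all. Those 2185 and 1984 genes were 23.3% and 21.1% of the genes tested. The counts of each list below are to be read beside these shares. A difference of at least 4-fold was found for 494 genes higher in NK cells and 658 higher in CD11b cDCs, and one of at least 64-fold for 36 and 51. Strict on and off patterns were fewer: 24 genes had at least 1000 on both NK cell arrays and less than 20 on both CD11b cDC arrays, and 27 genes had the opposite pattern. In the plot of all genes these lie along the axes. The signal passed the minimum of 50 in this pair for 8407 of the genes tested, and the other 984 were tested because they passed in another population.

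The 15 largest differences toward NK cells ranged from 7.08 to 9.01. Gzma, the granzyme A protease of killer cell granules, had 18718 and 18346 in NK cells and 64.7 and 1.82 in CD11b cDCs and differed by 9.01 on the log2 scale (SE 0.54). The CD11b cDC arrays disagreed on this gene, but both were far below the NK cell arrays. Klra8, the Ly49H receptor that recognises a cytomegalovirus protein, had 10778 and 9236 in NK cells and 0.712 and 12.3 in CD11b cDCs, at least 499-fold higher in NK cells. Nkg7, a granule membrane protein, differed by 8.50 (SE 0.22), and Ctsw, the killer cell protease cathepsin W, by 8.17 (SE 0.42). The others of the 15 largest were Gimap4 and Gimap8, Il18r1, Eomes, Ifng, Gzmb, Prf1, Klre1, the adhesion receptor Cd2, the microtubule-binding protein gene Jakmip1, at 5859.7 and 4001 in NK cells and 15.7 and 17.2 in CD11b cDCs, and the protease inhibitor gene Ctla2b.

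The 15 largest differences toward CD11b cDCs ranged from -8.29 to -7.36. H2-Ab1, the beta chain of the class II molecule I-A, had 50.7 and 16.2 in NK cells and 9784 and 10198 in CD11b cDCs (log2 difference -8.29, SE 0.36). Plbd1, a lysosomal phospholipase B-like protein gene, had 35.5 and 19.8 in NK cells and 6715 and 7707 in CD11b cDCs. Wdfy4, which is needed for cross-presentation by CD8α cDCs, had 6.23 and 18.5 in NK cells and 5441 and 5130.2 in CD11b cDCs, at least 264-fold higher. All 3 were near the floor in NK cells. Lyz1, a lysozyme gene whose probe set may also detect its near-identical neighbour Lyz2, differed by -8.01 with an SE of 1.03, the widest of these. The rest of the 15 were H2-Eb1, Cd74, Ctsh, the transglutaminase Tgm2 (-7.75), the actin-severing gelsolin Gsn (-7.64), the short-chain fatty acid receptor Ffar2 (-7.57), the endolysosomal nuclease Pld4 (-7.56), Alox5ap, the RP105 partner Ly86 (-7.49), the antiviral Ifitm3 (-7.45) and the matrix protein gene Tgfbi.

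**Figure D2:**
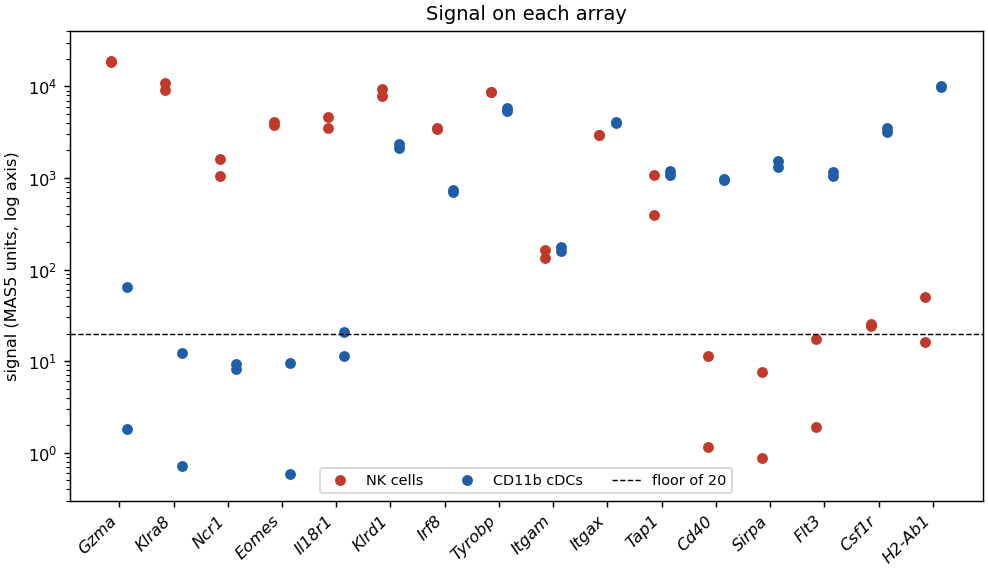
Signal of 16 genes (MAS5 units, log axis) on each of the 2 NK cell arrays (red) and the 2 CD11b cDC arrays (blue), with the floor of 20 as a dashed line. Duplicates lie close together except where the signal is near or under the floor or, for Tap1, in NK cells, and Tyrobp, Itgam and Itgax are the genes whose blue and red points lie close.

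Most NK receptor genes were higher in NK cells. Of 31 listed NK receptors 19 were tested, of which 16 were higher in NK cells and none in CD11b cDCs. Their median difference was 4.81 against 0.045 over all genes tested. Genes that passed the minimum signal in no population were not tested, so that receptors dim in both NK cells and CD11b cDCs could drop out. Without this filter 23 were tested, and again 16 were higher in NK cells and none in CD11b cDCs, with a lower median of 4.1. Klrb1a had 1432 and 1482 in NK cells and 0.541 and 11.7 in CD11b cDCs. Klrc1, the NKG2A chain of an inhibitory receptor for Qa-1, had 1202 and 1469 in NK cells and 19.2 and 0.304 in CD11b cDCs, and Klra7, the Ly49G receptor, had 1004 and 1092 in NK cells and 0.197 and 0.315 in CD11b cDCs. All 3 lay below 20 in CD11b cDCs. Klrk1, the activating receptor NKG2D, was higher by 4.38 (SE 0.39), Cd160 by 6.41, Klrg1 by 5.65, the nectin-binding Cd96 by 4.98 and Crtam by 4.10. Klrb1c, the NK1.1 antigen of the sort, has no probe set of its own in the annotation used, and the probe set it shares with Klrb1b had 3736 and 3897 in NK cells and 1.20 and 10.6 in CD11b cDCs. A probe set shared by Klra9 and Klra3 had 15545 and 14082 in NK cells against 266 and 215 in CD11b cDCs.

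Not every receptor of NK cells was low in CD11b cDCs. Klrd1, the CD94 chain that pairs with NKG2 receptors, had 9390.0 and 7907 in NK cells and 2339 and 2135 in CD11b cDCs and differed by 1.95 (SE 0.48, adjusted p = 0.00743). The CD11b cDC signal was thus far above the floor, as was that of pDCs, which averaged 2654, while CD8α cDCs averaged 215. Of the 10 NK cell markers above, 4, Ncr1, Eomes, Prf1 and Il2rb, lay below 20 on the same CD11b cDC arrays. Another 3, Klrd1, Tbx21 and Klrk1, had at least 50 on both. A part of NK cell RNA in the Klrd1 signal of CD11b cDCs was not tested. The call for Klrd1 was lost without CD11b cDC replicate 2 or NK cell replicate 1 (adjusted p up to 0.0615). Cd7, an immunoglobulin superfamily receptor of lymphocytes, had 1887 and 2052 in NK cells and 1215 and 1624 in CD11b cDCs and was not called. Slamf7, a homophilic SLAM family receptor, had 369 and 364 in NK cells and 447 and 544 in CD11b cDCs and met the rule for a similar level given below.

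Of 20 listed genes of granules and death ligands 19 were tested, and 14 were higher in NK cells and none in CD11b cDCs (median 3.1). Prf1, which encodes the pore-forming perforin, had 2914 and 3178 in NK cells and 16.7 and 13.03 in CD11b cDCs, and Gzmb had 3280.3 and 2871 in NK cells and 5.94 and 7.09 in CD11b cDCs. The signals of both genes were thus below the floor in CD11b cDCs. The death ligand gene Fasl had 2821 and 2669.7 in NK cells and 102 and 156 in CD11b cDCs, above the floor in both. Gzmm and Gzmk were higher by 3.10 and 2.91, the granzyme B inhibitor Serpinb9 by 4.23, and the cathepsin inhibitor Cst7 by 4.36. Rab27a, the GTPase that docks granules, was higher by 2.52 and the docking factor Unc13d by 1.36. Srgn, the proteoglycan that packs granule contents, had 3942 and 3990.1 in NK cells and 4527 and 4263 in CD11b cDCs. Lamp1, Ctsc and Stxbp2, like Srgn, met the rule for a similar level, with differences of -0.13, -0.14 and -0.26. Ctsc encodes the protease that activates granzymes, and its second probe set had a difference of -1.70.

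Of 24 listed lymphoid transcription factors 22 were tested, and 20 were higher in NK cells and none in CD11b cDCs (median 3.18). Eomes, a T-box factor of NK cell maturation, had 4086 and 3742 in NK cells and 0.592 and 9.48 in CD11b cDCs, at least 195-fold higher. Tbx21, the T-box factor T-bet, had 3357 and 2884 in NK cells and 273 and 264 in CD11b cDCs and differed by 3.54 (SE 0.25), so that its CD11b cDC signal also lay above the floor. Gata3 had 297 and 331 in NK cells and 0.984 and 1.16 in CD11b cDCs, and Ets1, Ikzf3, Zfpm1 and Gfi1 were higher by 5.06, 5.12, 4.45 and 4.14. Id2, an inhibitor of E proteins, had 2781 and 2206 in NK cells and 1586 and 1353 in CD11b cDCs and was not called (adjusted p = 0.0906).

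The list of DC and myeloid transcription factors went the other way, with 17 of 22 tested genes higher in CD11b cDCs, 1 in NK cells and a median of -2.18. Spi1, which encodes PU.1, had 11.4 and 29.5 in NK cells and 873 and 988 in CD11b cDCs, and Bcl11a had 15.5 and 10.3 in NK cells and 651 and 888 in CD11b cDCs. Irf4, a factor of CD11b cDC development, had 21.3 and 37.3 in NK cells and 513 and 558 in CD11b cDCs. Each was near the floor in NK cells. Batf3 (-4.42), Irf5 (-3.71), the NF-κB subunits Rel (-4.23) and Relb (-3.32), and Zbtb46 (-2.75), a factor found in cDCs, were lower in NK cells too. The exception was Irf8, a factor of CD8α cDCs and pDCs, which had 3479 and 3423 in NK cells and 708 and 747 in CD11b cDCs and was higher in NK cells by 2.25 (SE 0.14, adjusted p = 3.23e-07). CD8α cDCs and pDCs averaged 9747 and 10121, above both.

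Receptors for cytokines and growth factors were described as 2 lists. Il18r1, a chain of the IL-18 receptor, had 4577 and 3527 in NK cells and 11.3 and 20.6 in CD11b cDCs, and its partner chain gene Il18rap had 1919.6 and 1905 in NK cells and 14.6 and 15.5 in CD11b cDCs. Il2rb, the beta chain shared by IL-2 and IL-15, had 1374 and 1228 in NK cells and 3.48 and 3.34 in CD11b cDCs, and Il12rb1 was higher by 2.73. These chains are those through which cytokines of myeloid cells act on NK cells. In all, 7 of the 14 lymphoid cytokine receptors tested, of 17 listed, were higher in NK cells, and 4 were higher in CD11b cDCs. Over all genes tested these shares were 23.3% and 21.1%, so that the count of 4 was not far from its share. The 4 were Il21r (-2.12), Tgfbr1 (-1.20), Ifnar2 (-1.03) and Il10ra (-0.84). Only 2 of these 4 were called without NK cell replicate 1, Il10ra was also lost without CD11b cDC replicate 1, and Tgfbr1 without any one of the 4 arrays (adjusted p up to 0.0852 and 0.0808). Of 12 listed myeloid growth factor receptors 11 were tested, and 10 were higher in CD11b cDCs and none in NK cells (median -3.57). Flt3, the receptor that drives DC development, had 17.5 and 1.93 in NK cells and 1057 and 1169 in CD11b cDCs. Csf1r, the M-CSF receptor, had 25.4 and 24.4 in NK cells and 3187 and 3473 in CD11b cDCs. Csf2ra and Csf2rb, the chains of the GM-CSF receptor, differed by -4.46 and -5.78, and the stem cell factor receptor Kit by -3.57.

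Some secreted products were higher in NK cells and others in CD11b cDCs. Ifng, the interferon gamma gene, had 2717 and 3721 in NK cells and 14.9 and 20.04 in CD11b cDCs and differed by 7.31 (SE 0.23). Xcl1, the ligand of the receptor XCR1 on CD8α cDCs, had 671 and 897 in NK cells and 16.8 and 5.37 in CD11b cDCs, and Csf2, which encodes GM-CSF, was higher in NK cells by 2.20. On the other side Il1b had 11.6 and 33.2 in NK cells and 2765 and 3454 in CD11b cDCs, and Tnf had 34.5 and 51.2 in NK cells and 664 and 532 in CD11b cDCs. Ebi3 (-4.87), Il18 (-3.67), Cxcl16 (-3.14) and Ltb (-2.13) were also higher in CD11b cDCs. Of 32 listed cytokines and chemokines 24 were tested, and 13 were higher in CD11b cDCs and 6 in NK cells (median -1.38). Over all genes tested these shares were 21.1% and 23.3%, so that the count of 6 was near its share. With no filter on signal 30 were tested, the counts of 13 and 6 stayed, and the median was -0.588. Signals of the chemokine genes Ccl3, Ccl4 and Ccl5 were present in both: Ccl5 had 12576 and 12443 in NK cells and 2764 and 2775 in CD11b cDCs, Ccl4, whose call was lost without NK cell replicate 2 (adjusted p = 0.0562), had 1314 and 1978 in NK cells and 469 and 535 in CD11b cDCs, and Ccl3, which was not called (adjusted p = 0.0655), had 2502 and 3753 in NK cells and 1442 and 1202 in CD11b cDCs. Il12b was low, with 34.4 and 29.7 in CD11b cDCs and 1.99 and 8.12 in NK cells.

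The 8 genes of the Gimap family, GTPases of lymphocyte survival that lie in 1 gene cluster, were all tested and all higher in NK cells, with a median of 6.02. Gimap4 had 10882 and 10661 in NK cells and 42.6 and 34.5 in CD11b cDCs. The smallest of the differences was that of Gimap5, with 688 and 675 in NK cells and 0.448 and 7.46 in CD11b cDCs, at least 34.1-fold. All were at or near the floor in CD11b cDCs.

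Among the receptors that guide cells through tissue, 10 of 20 tested, of 29 listed, were higher in NK cells and 4 in CD11b cDCs (median 0.35). Over all genes tested these shares were 23.3% and 21.1%, so that the count of 4 was near its share. With no filter on signal 27 were tested, 9 were higher in NK cells and 3 in CD11b cDCs, and the median was 0. S1pr5, the sphingosine phosphate receptor by which NK cells leave tissue, had 2726 and 2725 in NK cells and 20.1 and 56.4 in CD11b cDCs. S1pr4, Cxcr3 and Ccr2 were higher in NK cells by 5.34, 4.39 and 4.02. Ccr7, the receptor for lymph node chemokines, had 3.47 and 27.4 in NK cells and 556 and 592 in CD11b cDCs, and Gpr183, the oxysterol receptor that places CD11b cDCs in the spleen's bridging channels, had 41.4 and 69.3 in NK cells and 1254 and 1005 in CD11b cDCs. Ccr6 was higher there by 4.27 on the log2 scale. Cx3cr1, the fractalkine receptor, had 116 and 145 in NK cells and 138 and 148 in CD11b cDCs and was at a similar level.

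Of the lists, MHC class II had the median farthest toward CD11b cDCs. Of 18 listed genes of class II presentation 17 were tested, and 15 were higher in CD11b cDCs and none in NK cells (median -4.85). H2-Aa had 93.6 and 72.2 in NK cells and 10703 and 12027 in CD11b cDCs, H2-Eb1 had 43.0 and 43.2 in NK cells and 9987 and 9025 in CD11b cDCs, and Cd74, the invariant chain that escorts class II molecules, had 36.8 and 59.5 in NK cells and 9082 and 9750.2 in CD11b cDCs. The 3 log2 differences were -7.11, -7.78 and -7.65, and the arrays stood far apart. The peptide exchange chains H2-DMa and H2-DMb2 differed by -4.30 and -6.84, and their modulators H2-Oa and H2-Ob by -4.35 and -5.60. Ifi30, a thiol reductase that unfolds antigen, differed by -5.72. Ciita, the transactivator of class II genes, had 1.35 and 25.8 in NK cells and 461 and 382 in CD11b cDCs. Of the RFX subunits that bind class II promoters together with it, Rfxap had 203 and 256 in NK cells and 183 and 186 in CD11b cDCs and was at a similar level, as it was under 13 of 23 alternatives. Rfxank had 113 and 124 in NK cells and 88.9 and 117 in CD11b cDCs and was not called. Rfx5 had 599.8 and 442 in NK cells and 947 and 824 in CD11b cDCs and was higher in CD11b cDCs (-0.78 on the log2 scale), a call lost without CD11b cDC replicate 1 or NK cell replicate 2 and with only the 4 arrays fitted (adjusted p up to 0.112).

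Promoters of class II genes are known to carry an X box, which RFX binds, and a Y box, which NF-Y binds. The letters CTGATTGG of the Y box were searched on both strands of the RefSeq promoter windows of GRCm38.p6, from 250 bases before to 50 after each start. They were found for 4 of the 12 higher class II genes that have a window in the table, against 4.7% of all 27025 genes with a window, 6.72% of the 7683 genes tested that have one and 6.31% of those called and at least 4-fold higher in CD11b cDCs. The 200 bases before the start of these 4 genes are given here because they hold the match, which is in capitals. They were not chosen by the size of their difference. H2-Aa lies on the minus strand and the others on the plus strand.
H2-Aa, chr17:34287824-34288023: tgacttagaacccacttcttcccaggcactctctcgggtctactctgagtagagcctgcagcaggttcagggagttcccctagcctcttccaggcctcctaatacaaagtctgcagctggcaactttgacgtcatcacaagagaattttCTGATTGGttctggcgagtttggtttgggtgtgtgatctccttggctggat
H2-Eb1, chr17:34305667-34305866: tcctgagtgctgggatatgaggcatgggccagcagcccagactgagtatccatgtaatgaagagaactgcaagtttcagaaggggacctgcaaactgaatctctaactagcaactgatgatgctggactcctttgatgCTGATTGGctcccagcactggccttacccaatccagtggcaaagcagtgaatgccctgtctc
H2-Eb2, chr17:34325475-34325674: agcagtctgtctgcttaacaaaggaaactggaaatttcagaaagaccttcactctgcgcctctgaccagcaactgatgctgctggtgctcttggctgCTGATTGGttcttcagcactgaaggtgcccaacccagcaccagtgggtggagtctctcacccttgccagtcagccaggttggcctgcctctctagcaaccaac
H2-Oa, chr17:34092179-34092378: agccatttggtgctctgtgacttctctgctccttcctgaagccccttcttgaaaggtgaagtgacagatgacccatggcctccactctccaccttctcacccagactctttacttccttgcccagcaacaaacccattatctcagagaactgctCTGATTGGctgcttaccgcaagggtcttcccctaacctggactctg
The match began at -51, -62, -103 and -46 from the start in H2-Aa, H2-Eb1, H2-Eb2 and H2-Oa. H2-Eb2, a further class II beta chain gene, had 20.5 and 11.5 in NK cells and 702 and 802 in CD11b cDCs. A match of letters is a description of these windows and not a binding site.

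Most lysosomal genes were higher in CD11b cDCs. Of 21 listed proteases, lysozymes and lysosomal proteins 18 were tested, and 13 were higher in CD11b cDCs and 2 in NK cells (median -2.34). Ctsh, which encodes the aminopeptidase cathepsin H, had 1.71 and 8.34 in NK cells and 4109 and 4579.9 in CD11b cDCs. Ctss, the cathepsin that trims the invariant chain, had 1085 and 1013 in NK cells and 7557 and 7301 in CD11b cDCs, and Ctsz differed by -5.31. Cst3, a cathepsin inhibitor used as a cDC marker, had 469.8 and 576 in NK cells and 6277 and 6559 in CD11b cDCs. The pore-forming phagosomal protein gene Mpeg1 had 2.18 and 10.8 in NK cells and 1569.9 and 1864 in CD11b cDCs. Against this trend, Ctsd, which encodes the aspartic protease cathepsin D, had 2714 and 3026 in NK cells and 353 and 330.1 in CD11b cDCs and was higher in NK cells by 3.07 (SE 0.27). The gene has a single probe set here. Ctse was higher in NK cells by 2.57, but its second probe set gave -3.64, so that no direction is given for it.

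Sensing of microbes lay mostly with CD11b cDCs: 16 of 23 tested genes of pattern recognition, of 31 listed, were higher there and 2 in NK cells (median -2.18). Tlr1, which pairs with Tlr2 on bacterial lipoproteins, had 1.43 and 2.09 in NK cells and 966 and 946 in CD11b cDCs. Clec7a, the fungal glucan receptor Dectin-1, had 12.9 and 11.8 in NK cells and 1281 and 1738 in CD11b cDCs. Both were below the floor in NK cells. Tlr13, Tlr7, Tlr2 and Tlr5 were lower in NK cells by 4.34, 3.81, 3.72 and 2.40 on the log2 scale, and the RNA sensor gene Ifih1 by 2.94. The 2 genes higher in NK cells encode adaptors, Tirap (1.57) and the inflammasome adaptor Pycard (1.16), which had 3010.1 and 4162 in NK cells and 1339 and 1884 in CD11b cDCs. The call for Pycard was lost without any one of the 4 arrays (adjusted p up to 0.2) and that for Tirap without CD11b cDC replicate 1 (adjusted p = 0.0523). Tlr4 did not pass the minimum, with 56.3 and 40.4 in NK cells and 16.3 and 27.7 in CD11b cDCs.

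Of 23 listed uptake receptors 14 were tested, and 7 were higher in CD11b cDCs and 1 in NK cells (median -1.29). The latter, the scavenger receptor gene Cd163, was dim, with 32.6 and 28.4 in NK cells and 8.20 and 11.5 in CD11b cDCs. The lectin genes Clec4a2, Clec4a3 and Cd209a had 1223 and 1253, 1084 and 1472 and 511 and 729 there and were under the floor in NK cells. Scarb1, a lipoprotein receptor, was lower in NK cells by 3.85. With no filter on signal 21 uptake receptors were tested. The counts of 7 and 1 stayed, but the median was -0.191. Of the phagocyte oxidase genes, 3 of 7 tested were higher in CD11b cDCs, among them Cybb, the catalytic subunit, which had 28.9 and 3.97 in NK cells and 1419 and 1845 in CD11b cDCs, and Ncf1, which had 81.1 and 61.6 in NK cells and 1536 and 1536 in CD11b cDCs. Cyba and Rac1 were at a similar level, at 4374 and 4709.7 in NK cells and 4941 and 5398 in CD11b cDCs for Cyba. The 1 gene higher in NK cells was the GTPase gene Rac2 (1.11, adjusted p = 0.0486), and its call was lost without any one of the 4 arrays and under 17 of 23 alternatives in all, both other normalizations among them.

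Most genes for the talk with T cells were higher in CD11b cDCs. Of 20 listed 17 were tested, and 12 were higher in CD11b cDCs and 3 in NK cells (median -1.93). Cd40 had 11.5 and 1.15 in NK cells and 958 and 979 in CD11b cDCs, Cd86 had 23.4 and 20.4 in NK cells and 513 and 488 in CD11b cDCs, and Cd83, a marker of DC maturation, had 40.3 and 57.8 in NK cells and 4619 and 4237 in CD11b cDCs. Icosl and Cd274, which encodes PD-L1, differed by -3.41 and -2.75. The 3 genes higher in NK cells, Cd27, Tnfrsf9 and Cd28, encode receptors of lymphocytes rather than their ligands, and Cd27 had 467 and 403 in NK cells and 2.29 and 1.21 in CD11b cDCs. Icos, the receptor for Icosl, had 302 and 238 in NK cells and 275 and 219 in CD11b cDCs and was at a similar level.

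Of 24 listed inhibitory receptors and phosphatases 19 were tested, and 12 were higher in CD11b cDCs and 1 in NK cells (median -2.3). Pirb, Cd300a, Havcr2 and Siglecg had 1021 and 1143, 1442 and 1493, 1229.6 and 1212 and 834 and 842 in CD11b cDCs, and in NK cells all lay below 20 except for 26.0 for Cd300a on 1 array. Cd22, an inhibitory lectin of B cells, had 286 and 356 in NK cells and 2180.1 and 2035 in CD11b cDCs, while Ms4a1, another B cell marker, had 162 and 122 in CD11b cDCs and Pax5 lay below 20 on all 4 arrays. Of the phosphatases, Ptpn6, which encodes SHP-1, had 639 and 633 in NK cells and 4289 and 4287 in CD11b cDCs, but its second probe set differed by 0.59. Inpp5d, which encodes SHIP-1, was at a similar level, as was Cd47, the ligand of Sirpa, with 2613 and 2981 in NK cells and 1954 and 2438 in CD11b cDCs. Ptpn11, which encodes SHP-2, was within 2-fold but called higher in NK cells (log2 difference 0.67, SE 0.14).

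Lipid mediator genes were few: 9 of 18 listed were tested, and 5 were higher in CD11b cDCs and 1 in NK cells (median -2.03). Alox5ap, which presents arachidonate to 5-lipoxygenase, had 15.0 and 28.4 in NK cells and 4529.6 and 4104 in CD11b cDCs, and Ptgs2, the inducible cyclooxygenase, had 5.86 and 2.99 in NK cells and 1466 and 987 in CD11b cDCs. Ptger4, a prostaglandin E2 receptor, was higher in NK cells by 1.06, but its second probe set gave -0.60.

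**Figure D3:**
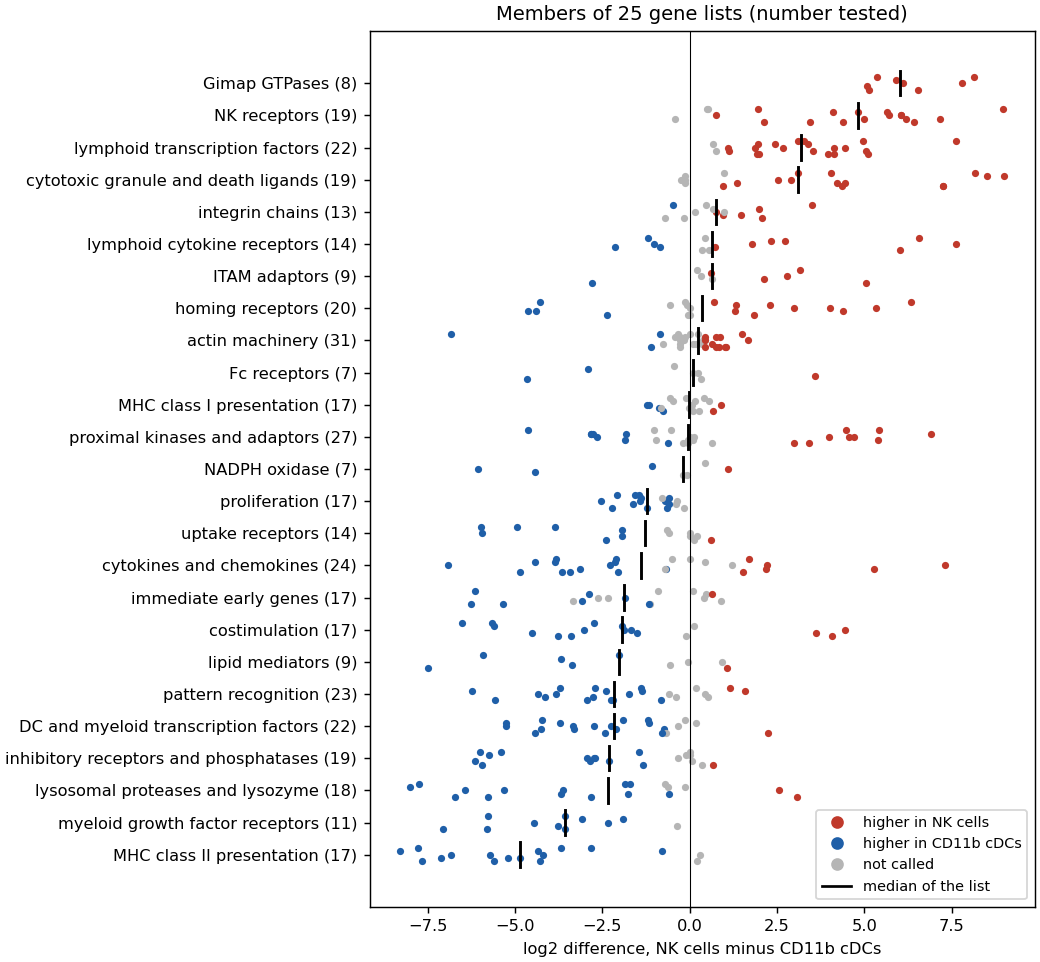
Each point is a gene of 1 of 25 lists, placed by its log2 difference (NK cells minus CD11b cDCs) and coloured by the limma call, with the median of each list as a black bar and the number tested in parentheses. Gimap GTPases and NK receptors lie farthest to the right (medians 6.02 and 4.81) and MHC class II presentation farthest to the left (-4.85), while MHC class I presentation, actin machinery and kinases are centred near 0.

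Immediate early and heat shock genes, which rise in cells handled during isolation as well as in activated cells, were higher in CD11b cDCs for 7 of 17 tested (median -1.87), and 1, the NF-κB inhibitor gene Nfkbia, was higher in NK cells (0.63), a call lost after quantile or invariant-rank normalization. Egr1 had 436 and 1035 in NK cells and 7349 and 4369 in CD11b cDCs and Atf3 had 22.8 and 48.6 in NK cells and 3729 and 1758 in CD11b cDCs. Hspa1a had 88.2 and 78.8 in NK cells and 6197 and 5695 in CD11b cDCs, with an SE of 1.45 from the spread within all populations, and Fos, with 1927 and 5198 in NK cells and 7869.6 and 6214 in CD11b cDCs, was not called (adjusted p = 0.513). The NK cell arrays differed from each other for Fos and Egr1, replicate 2 being higher. Both populations went through the same digestion according to the labels, and a part of handling in these differences was not tested.

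Genes of cell division were higher in CD11b cDCs for 13 of 17 tested, of 19 listed, with none higher in NK cells and a median of -1.22. Mki67, a marker of cycling cells, had 414 and 545 in NK cells and 1391 and 1438 in CD11b cDCs, and Birc5, a chromosomal passenger protein gene, had 56.7 and 113 in NK cells and 418 and 525 in CD11b cDCs. Top2a and Ccna2 differed by -1.41 and -1.63. The replication helicase genes Mcm4 and Mcm7 were at a similar level, as was Stmn1, which encodes a tubulin-binding protein. The call for Mki67 was lost without NK cell replicate 1 (adjusted p = 0.0544). The count of 13 was 7 without NK cell replicate 1 and 8 without CD11b cDC replicate 2, whereas the median stayed between -1.43 and -1.0 under all alternatives.

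Genes that the pair shared were sought with a rule of their own. A gene was taken to be at a similar level when the 95% interval of its difference lay within 2-fold (-1 to 1) and both means were at least 100. Of 5328 genes with both means at that level, 2642 met the rule, which are 49.6% of them and 28.1% of all genes tested, and 1986 were called. The 2 outcomes overlap for 171 genes, whose difference was small but measured well, and 871 genes met neither. A called difference of at least 2-fold was found for 981 of the 5328. The highest of the shared levels belonged to ribosomal proteins and translation factors, Eef1a1, Rps3a1, Rps29, Rplp2, Rpsa, Tpt1, Rpl41, Rps7, Rpl7a, Rps14, Rpl4 and Rps4x, and to Tmsb4x, Actg1 and the chaperone Hspa8. Eef1a1, an elongation factor, had 15542 and 16439 in NK cells and 11015 and 10591 in CD11b cDCs, and Rpl4 had 7952 and 10419 in NK cells and 9269.9 and 9279.7 in CD11b cDCs. These are among the bright genes whose small shift toward NK cells depends on the scaling.

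Itgax, the CD11c chain by which cDCs were sorted, had 2922 and 2933 in NK cells and 4098 and 4016 in CD11b cDCs. Itgax and Itgam were antigens of the sort, so that their presence in CD11b cDCs was set by it. The Itgax signals did not overlap, but the difference was only -0.47 (95% interval -0.85 to -0.092, adjusted p = 0.0453), which lies within 2-fold. The call was lost when any of the 4 arrays of the pair was left out and under 10 of 23 alternatives in all. Itgam, the CD11b chain, had 135 and 162 in NK cells and 158 and 174 in CD11b cDCs, a difference of -0.17 (95% interval -0.61 to 0.27, adjusted p = 0.536), and the NK cell and CD11b cDC arrays overlapped. The similar level held under 22 of 23 alternatives for Itgam and 21 for Itgax. Bst2, the antigen of the 120G8 antibody, had 51.3 and 58.7 in NK cells and 149 and 177 in CD11b cDCs, a difference of -1.57 (SE 0.28).

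Several other integrin chains were higher in NK cells. Of 19 listed 13 were tested, and 6 were higher in NK cells and 1, Itgax, in CD11b cDCs, while Itgax, Itgam and Itgav were at a similar level (median 0.75). Itgb2, the beta chain that pairs with both Itgax and Itgam, had 6602 and 7683 in NK cells and 4293 and 4765 in CD11b cDCs and was not called (adjusted p = 0.105). Itgal, the third partner of Itgb2 and the alpha chain of LFA-1, had 2189 and 2549 in NK cells and 579 and 618 in CD11b cDCs and was higher in NK cells by 1.98 (SE 0.23). Itga2, the CD49b chain used to mark NK cells, had 68.7 and 103 in NK cells and 6.33 and 6.00 in CD11b cDCs, and Itga6 differed by 3.49. Itgav had 407 and 309.8 in NK cells and 329 and 309 in CD11b cDCs and was at a similar level.

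The promoter of Itgam is printed because it is the gene most like in level in this pair among the sort genes, and that of Ncr1 because it marks NK cells. The letters GAGGAAG, a core bound by PU.1, were searched on both strands, and so were TGTGGTT, a core bound by RUNX factors. Itgam held the former at -84 and Ncr1 the latter at -176, and each match is in capitals in the 200 bases before the start on the plus strand of GRCm38.p6.
Itgam, chr7:128062440-128062639: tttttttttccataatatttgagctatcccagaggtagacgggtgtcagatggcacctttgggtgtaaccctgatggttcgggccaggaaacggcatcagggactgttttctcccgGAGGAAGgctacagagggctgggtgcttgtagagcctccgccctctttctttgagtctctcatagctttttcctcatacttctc
Ncr1, chr7:4337515-4337714: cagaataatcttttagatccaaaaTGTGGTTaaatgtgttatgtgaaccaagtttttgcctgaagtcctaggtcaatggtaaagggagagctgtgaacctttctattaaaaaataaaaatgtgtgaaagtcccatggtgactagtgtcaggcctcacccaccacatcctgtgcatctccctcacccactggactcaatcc
GAGGAAG was found in the window of 15.4% of all genes, 16.3% of the genes tested, 18.7% of those at least 4-fold higher in NK cells and 21.4% of those at least 4-fold higher in CD11b cDCs. For TGTGGTT the shares in the same order were 6.09%, 4.58%, 7.77% and 5.74%. GGTGTGA, a core bound by T-box factors such as Eomes, was in 4.6% of all windows, 3.98% of those of the genes tested, 7.51% of the NK cell group and 4.4% of the CD11b cDC group. These shares describe 386 NK cell and 523 CD11b cDC genes that have a window.

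Signalling through immunoreceptors was described with 3 lists. All 9 listed immunoreceptor adaptors and CD3 or CD79 chains were tested, and 5 were higher in NK cells and 1 in CD11b cDCs (median 0.63). Fcer1g, the adaptor with an activation motif that serves Fc receptors and NKp46, had 3456 and 4166 in NK cells and 2813 and 3281 in CD11b cDCs and was at a similar level. Tyrobp, the adaptor DAP12 of many NK and myeloid receptors, had 8649 and 8727 in NK cells and 5822 and 5417 in CD11b cDCs, and its interval of -0.68 to 1.94 was too wide to meet either rule. Both adaptors were thus bright in both populations. Cd247, the CD3 zeta chain, had 552 and 793 in NK cells and 6.83 and 9.56 in CD11b cDCs, but the lowest of its 3 probe sets gave no difference. Hcst, the adaptor DAP10 of NKG2D, was higher in NK cells by 3.17, and Cd3d by 2.79, at 121 and 158 in NK cells.

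Of 35 listed proximal kinases and adaptors 27 were tested, and 9 were higher in NK cells, 8 in CD11b cDCs, and 5 were at a similar level (median -0.036), beside 23.3%, 21.1% and 28.1% of all genes tested. Those higher in NK cells are mostly known from T cell receptor signalling: Prkcq had 2187 and 2642 in NK cells and 5.85 and 2.23 in CD11b cDCs, Fyn had 5818 and 5470.1 in NK cells and 548 and 511 in CD11b cDCs, and Zap70, Txk, Lat, Skap1 and the SAP adaptor Sh2d1a were higher by 4.71, 4.48, 3.98, 5.40 and 4.57. Those higher in CD11b cDCs included Btk, a kinase of B and myeloid cells, with 1.09 and 3.43 in NK cells and 440.3 and 551 in CD11b cDCs, the Src family kinase Fgr with 182 and 146 in NK cells and 1199.7 and 1101 in CD11b cDCs, and Skap2, Prkcd and Plcg1 (-2.76, -1.86 and -2.66). Vav1, Tec, Csk, Bcl10 and Pik3ap1 were at a similar level. Vav1, the exchange factor common to both routes, had 275 and 476 in NK cells and 355 and 386 in CD11b cDCs. Syk, the kinase that docks on Fcer1g and Tyrobp, had 2038 and 2014 in NK cells and 1350.5 and 1232 in CD11b cDCs and was not called.

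Of 9 listed Fc receptors 7 were tested, of which 1 was higher in NK cells and 2 in CD11b cDCs (median 0.091), which is near the shares of all genes tested (23.3% and 21.1%). Fcgr3, the activating receptor CD16 of NK cells, had 456 and 645 in NK cells and 31.8 and 64.5 in CD11b cDCs, and Fcgr4, an activating receptor of myeloid cells, had 5.47 and 15.3 in NK cells and 126 and 180.0 in CD11b cDCs. Fcgr2b, the inhibitory receptor, had 351 and 404 in NK cells and 441 and 610.2 in CD11b cDCs and was at a similar level. Fcgrt, the neonatal Fc receptor that recycles antibody, had 19.0 and 30.5 in NK cells and 599.8 and 652 in CD11b cDCs.

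**Figure D4:**
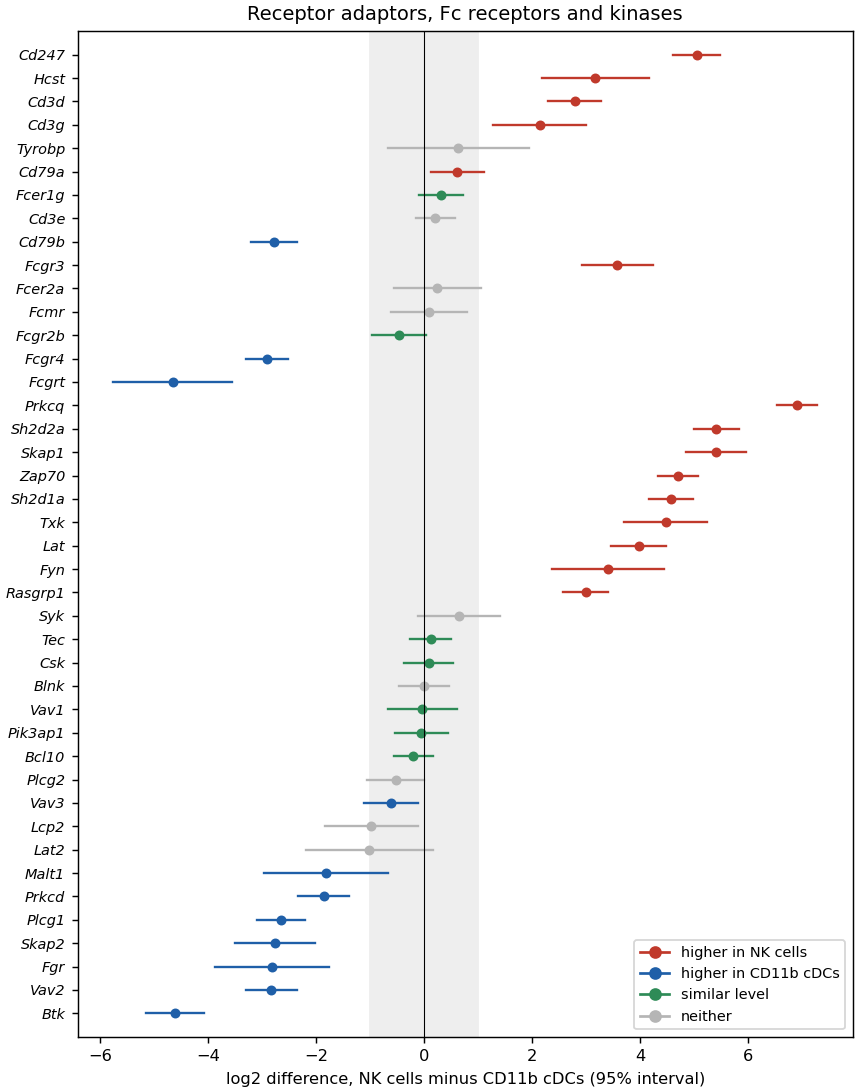
Log2 difference (NK cells minus CD11b cDCs) and its 95% limma interval for receptor adaptors (top), Fc receptors (middle) and proximal kinases and adaptors (bottom), with the band of 2-fold shaded. The T cell type kinases lie to the right of the band and Btk, Fgr and Skap2 to the left, and the intervals of Fcer1g, Fcgr2b, Vav1, Tec and Csk lie within it.

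The median difference of MHC class I genes, -0.00996, was near that of all genes tested, 0.045. Of 20 listed class I genes 17 were tested, all with both means of at least 100, and 8 were at a similar level, a share near the 49.6% of all genes with such means. In all 2 were higher in NK cells and 4 in CD11b cDCs, beside 23.3% and 21.1% of all genes tested. The 2 became 1 without any one array of the pair, of the CD8α cDCs or of the pDCs and after quantile normalization, and 0 after invariant-rank normalization. The 4 became 1 without NK cell replicate 1 and 2 without either CD11b cDC or either CD8 T cell array. B2m, the light chain, had 9340.4 and 8714 in NK cells and 8113 and 6986 in CD11b cDCs. H2-K1, a heavy chain, had 12672 and 14168 in NK cells and 8420.5 and 8507 in CD11b cDCs, a shift that belongs to the bright genes. The loading factors Tapbp and Canx and the immunoproteasome subunit gene Psmb10 were at a similar level too, and so was the chaperone Calr, though under 10 of 23 alternatives only. Psmb9 and H2-M3 were higher in CD11b cDCs, by 1.21 and 1.15 on the log2 scale, and the call for H2-M3 was lost without NK cell replicate 1 (adjusted p = 0.0519). Tap1, the peptide transporter, was uneven between the NK cell arrays, with 391 and 1066 in NK cells and 1082 and 1185 in CD11b cDCs, and met neither rule.

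Of 34 listed genes of the actin machinery 31 were tested, and 15 of the 29 with both means of at least 100 were at a similar level, again near the 49.6% of all such genes. These included the branching complex genes Arpc2, Arpc5 and Actr3, the GTPases Cdc42 and Rhoa, Coro1a and the WASP gene Was. Coro1a, an actin regulator of leukocytes, had 5097 and 6111 in NK cells and 6372 and 7045 in CD11b cDCs, and Actr3 had 4979 and 5009.7 in NK cells and 4757 and 5192 in CD11b cDCs. Cdc42 and Rhoa had another probe set that differed by -2.61 and -0.56. In all 12 were higher in NK cells and 3 in CD11b cDCs (median 0.23), but the 12 became 6 and 5 under quantile and invariant-rank normalization, 6 without NK cell replicate 1, and 7 and 5 without CD11b cDC replicates 1 and 2, and the 3 became 1 without any of these 3 arrays. Fscn1, the fascin that bundles actin in DC protrusions, was the large exception, with 10.5 and 8.07 in NK cells and 2515 and 2078 in CD11b cDCs. Dock2, an exchange factor of leukocyte migration, was higher in NK cells by 1.48, although a further probe set gave 0.014.

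Genes held by both above all others were few. A gene was taken to be selective for the pair when the lower of the 2 means exceeded the highest of the other 4 populations by at least 1 on the log2 scale and the largest p of the 8 one-sided limma tests, adjusted over genes, was at most 0.05. This held for 6 genes, 0.0639% of those tested. The count was 3 without either NK cell array, 3 and 2 without CD8α cDC replicates 1 and 2, 3 without pDC replicate 2 and 10 without B cell replicate 1. Itgam led, with an excess of 2.71 over B cells, the next population on the log2 scale with the floor, which had 28.8, 0.857 and 9.57. Its protein CD11b was an antigen of the CD11b cDC sort, so that its excess in these cells was in part set by the sort. Dab2ip, a regulator of Ras and NF-κB signalling, had 297 and 226 in NK cells and 136 and 137 in CD11b cDCs and at most 21.3 on average elsewhere (B cells). Klrb1f, a lectin-like receptor of the NK gene complex, had 1875 and 1939 in NK cells and 217 and 143 in CD11b cDCs, and CD8 T cells, the next, averaged 45.8. The signal of Klrb1f in CD11b cDCs thus lay above the other 4 populations and 10.8-fold below that of NK cells.

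The other 3 were lower. Dhrs3, a retinal reductase gene, had 219.9 and 211 in NK cells and 124 and 96.8 in CD11b cDCs, and CD8α cDCs averaged 37.2. Tnfsf14, which encodes the cytokine LIGHT, had 209.5 and 221 in NK cells and 111 and 166 in CD11b cDCs, and CD8 T cells averaged 56.5. The call for a difference of Tnfsf14 between NK cells and CD11b cDCs was lost under 5 of 23 alternatives (adjusted p up to 0.613), among them those without CD11b cDC replicate 1 and without NK cell replicate 2. Nhsl2 had 54.0 and 56.0 in NK cells and 66.6 and 65.4 in CD11b cDCs. Of the 6, 4 were called higher in NK cells (Dab2ip, Klrb1f, Dhrs3 and Tnfsf14), none was called higher in CD11b cDCs, and Itgam alone met the rule for a similar level. Nhsl2 was too dim for that rule. Itgax was not among them, since CD8α cDCs averaged 2599.

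**Figure D5:**
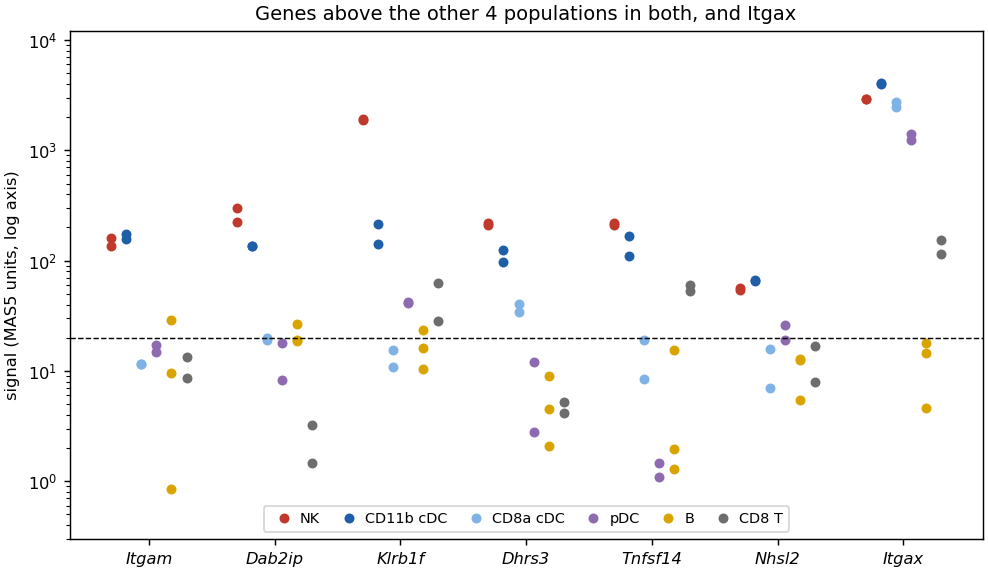
Signal on each of the 13 arrays (MAS5 units, log axis) for the 6 genes selective for the pair and for Itgax, by population, with the floor of 20 as a dashed line. NK cells (red) and CD11b cDCs (blue) stand above the other populations for the 6 genes, whereas for Itgax CD8α cDCs and pDCs also lie above 1000.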

How the data were processed

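Total RNA of each sorted pool was amplified through 2 rounds and hybridised to Affymetrix Mouse Genome 430 2.0 arrays. The deposited MAS5 signal intensities were computed by the authors with scaling to a target of 100. Here values below 20 were set to 20 and log2 transformed. Of 45101 probe sets, 34958 had 1 gene symbol, 932 several and 9211 none, and each gene was read from its probe set of highest mean over the 13 arrays, if that reached 50 on all arrays of at least 1 of 6 populations. A linear model with 6 population means was fitted with limma 3.58.1 (R 4.3.3; lmFit and eBayes, 7 residual and 3.55 prior degrees of freedom) to all 13 arrays, with Benjamini-Hochberg adjustment over 9391 genes. The code was tested on simulated data. Duplicates were independent sorts, and 2 arrays per population limit the precision. Promoter windows came from RefSeq (GRCm38.p6). The genes named are the markers and sort genes, the 15 largest differences in each direction, the 15 highest shared levels, the genes selective for the pair and members of the lists. Members and lists were chosen with earlier results of these data known. Alternatives covered normalization, floor, filter, probe set choice, the variance model, a scan-day or replicate block, the arrays fitted and each array left out.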

Additional observations from a re-analysis of the deposited data

How the results depend on the processing

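Of the 4169 called genes 2823 also differed by at least 2-fold. Over the alternatives to the processing the count of called genes lay between 3085, with every probe set of a gene called the same way, and 4785, without B cell replicate 1. Leaving out an array of the pair kept 72.5% to 79.6% of the calls, and no called gene was called the other way except 3 with only the 4 arrays fitted and 1 without pDC replicate 1. The study's methods state that the duplicates of the pair, of the CD8α cDCs and of the pDCs were sorted in 2 independent experiments, but not whether the same number marks the same experiment, so that a shared sort is possible and the numbers were not taken to pair the samples (correlation 0.118 between the deviations of arrays with the same number). A replicate block gave 4048 called genes and 3 genes selective for the pair. The count of genes at a similar level fell from 2642 to 606 with a band of 1.5-fold. The count of genes selective for the pair was 3 after invariant-rank normalization, 0 by limma without the floor (16 at an unadjusted p of at most 0.05), and between 2 and 10 with 1 array left out; without the floor, spread among signals below 20 enters the test. Of 205 named genes with a called difference the direction turned for 5: after quantile normalization Eef1a1, Rps7, Rpsa and Tmsb4x differed by -0.0023, -0.075, -0.032 and -0.12, after invariant-rank normalization Rps7 and Tmsb4x by -0.0026 and -0.043, and with only the 4 arrays Ctse, then represented by its other probe set, by -3.64. In the remaining alternatives these 5 kept their direction. Of 61 named genes whose difference was not called, 31 crossed 0 under at least 1 alternative, the largest of them with a difference of 0.39 in size. The cause of the scaling dependence was not tested.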

Other observations

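Probe sets that the annotation assigns to several genes were outside the comparison and have no test. The probe set of Ly6c2 and Ly6c1, surface antigens of monocytes and lymphocytes, had 1863 and 1637 in NK cells and 37.5 and 35.2 in CD11b cDCs. That of H2-Q9 and H2-Q7, nonclassical class I genes, had 6953 and 7872 in NK cells and 2335 and 2466 in CD11b cDCs. A probe set of H2-T23, which encodes the Qa-1 ligand of the CD94 and NKG2A receptor, and the pseudogene H2-T-ps had 4007 and 4744 in NK cells and 4638 and 5171 in CD11b cDCs.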
